A study of Mus musculus with 2 samples.

Results

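Of the 22286 Tcf1 peaks in the deposited list, 2573 (11.55%) lay between genes at a middle distance from a promoter. Each had its summit on chromosomes 1 to 19, outside every annotated gene, over 1 kb from every annotated start site, and over 10 kb and up to 50 kb from the nearest start site of a protein-coding gene (mm9 build, GENCODE vM1 annotation). They made up 11.8% of the 21764 peaks on these chromosomes, beside 8545 peaks within 1 kb of a start site (promoter peaks), 7155 in gene bodies, 1531 intergenic peaks at 1 to 10 kb and 1960 intergenic peaks beyond 50 kb. The rule uses only position within the deposited list. Every peak on that list had already been called on WT signal over the control, so signal and width were not free to vary. Members had at least 18 WT fragments at the summit and a width of at least 185 bp.

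Tcf1, the product of Tcf7, is a high mobility group protein of the Tcf/Lef family that T cells need from their first steps in the thymus onward, and Lef1 is its closest relative in these cells. Both bind a short DNA core that ends in CAAAG. Much of the DNA that controls T cell genes lies in enhancers and silencers far from the promoter, where several factors sit side by side, Runx and ETS proteins among them. The nearest start site is used here as a name for a peak and not as the gene that the peak acts on.

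The data compared 1 WT library with 1 Tcf1-deficient library, both immunoprecipitated with a rabbit antiserum raised against full-length Tcf1. Naïve CD8+ T cells were sorted from spleen as GFP+ TCRbeta+ CD62Lhi CD44lo-med CD8+ cells in both groups. The series design describes hCD2-Cre, Rosa26-lsl-GFP mice for both groups, in which Cre under the human CD2 promoter switches on GFP, carrying either wild-type or floxed Tcf1 and Lef1 alleles. The genotype label of the control is Tcf1-/-Lef1-/-, its title says Tcf1-deficient, and the ChIP methods describe Cd4-Cre+ Tcf7 fl/fl mice without mention of Lef1 or GFP. These sources cannot be reconciled here, so whether the control cells lacked Lef1 is unknown, and they are called Tcf1-deficient. All strains were on the C57BL/6 background. The methods give young adult mice of both sexes and do not say which animals, or how many, went into each library. After duplicate removal the WT library held 36938606 fragments and the control 27625250. With 1 library per group there was no replicate check and no test of genotype, and peaks are not replicates. A peak list also gives no measure of Tcf7 RNA or of lineage markers in the control, so neither the deletion nor the cell label could be checked on the data. All intervals are 95% intervals and cover counting error only.

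The Tcf/Lef core (ATCAAAG, either strand) lay within 100 bp of the summit in 328 of the 2573 peaks. The strongest peak that held it was also the strongest of all, 31.2 kb upstream of Tcf7 itself. Its 201 bases around the summit are shown with the core in capitals, which on this strand reads as its reverse complement. The core lies near the right end of the window and not at the summit in its centre. A variant of the core, TTCAAAG, lies near the left end and is not marked. The sequence is from mm9, 5′ to 3′.
Tcf7 (chr11:52127830-52128030, plus strand): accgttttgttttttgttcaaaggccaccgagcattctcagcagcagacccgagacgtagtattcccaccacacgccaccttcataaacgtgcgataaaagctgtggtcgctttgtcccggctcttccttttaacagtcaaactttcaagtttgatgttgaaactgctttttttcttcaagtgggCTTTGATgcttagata

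The 10 strongest peaks with the core are set side by side below, each as 41 bases centred on the core nearest the summit and turned so that the core reads in the same direction. Capitals mark ATCAAAG. The lines run from a fold enrichment of 142 at Tcf7 to 38.2 at Ifng. The peak near Chrna9 held 2 cores within the stretch shown.
Tcf7 (chr11:52127998-52128038, minus strand): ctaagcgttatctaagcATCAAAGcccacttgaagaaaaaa
Chrna9 (chr5:66295920-66295960, minus strand): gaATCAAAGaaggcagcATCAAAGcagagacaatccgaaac
Tns4 (chr11:98966488-98966528, minus strand): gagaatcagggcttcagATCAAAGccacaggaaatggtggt
Plcl2 (chr17:50610068-50610108, minus strand): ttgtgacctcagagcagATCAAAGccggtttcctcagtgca
Dad1 (chr14:54853063-54853103, plus strand): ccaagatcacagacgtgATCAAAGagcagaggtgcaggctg
Adrbk2 (chr5:113464231-113464271, plus strand): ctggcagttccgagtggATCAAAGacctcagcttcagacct
Atp1b3 (chr9:96295443-96295483, minus strand): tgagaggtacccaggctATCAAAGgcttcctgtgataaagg
Sp2 (chr11:96857896-96857936, minus strand): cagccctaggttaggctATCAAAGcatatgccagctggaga
Dennd4c (chr4:86367836-86367876, plus strand): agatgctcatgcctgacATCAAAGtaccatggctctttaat
Ifng (chr10:117856281-117856321, plus strand): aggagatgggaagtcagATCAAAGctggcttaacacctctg

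Runx proteins bind TGTGGTT, which was found in more members than the Tcf/Lef core. The window of the strongest peak with this core and no Tcf/Lef core, 12.3 kb downstream of the Dapk2 start site with a fold enrichment of 65.3, is shown with the Runx core in capitals. On this strand it reads as its reverse complement.
Dapk2 (chr9:66128374-66128574, plus strand): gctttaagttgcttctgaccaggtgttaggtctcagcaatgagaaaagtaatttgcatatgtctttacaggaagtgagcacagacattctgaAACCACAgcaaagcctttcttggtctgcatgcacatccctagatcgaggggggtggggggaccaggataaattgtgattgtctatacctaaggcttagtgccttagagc

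The members with the most cores held 3 each. The peak 16.9 kb upstream of Selenbp1 had 3 Runx cores, and the peak 23.9 kb downstream of the Actl9 start site had 2 Runx cores and 1 Tcf/Lef core, with 1 pair so close that they share a base. Both are given with all cores in capitals.
Selenbp1 (chr3:94719942-94720142, plus strand): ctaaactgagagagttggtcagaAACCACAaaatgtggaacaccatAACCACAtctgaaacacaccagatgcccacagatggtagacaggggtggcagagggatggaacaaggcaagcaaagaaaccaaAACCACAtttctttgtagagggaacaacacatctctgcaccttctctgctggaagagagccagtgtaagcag
Actl9 (chr17:33593679-33593879, plus strand): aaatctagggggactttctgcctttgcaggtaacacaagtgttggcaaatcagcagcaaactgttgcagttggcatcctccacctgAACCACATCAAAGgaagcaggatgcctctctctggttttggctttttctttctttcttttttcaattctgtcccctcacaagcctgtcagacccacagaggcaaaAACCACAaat

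A small group of these peaks had CpG-rich DNA like that of many promoters. The strongest of them with the ETS core CGGAAGT, 32.4 kb downstream of the A830005F24Rik start site, is shown with that core in capitals, read on the other strand.
A830005F24Rik (chr13:48641269-48641469, plus strand): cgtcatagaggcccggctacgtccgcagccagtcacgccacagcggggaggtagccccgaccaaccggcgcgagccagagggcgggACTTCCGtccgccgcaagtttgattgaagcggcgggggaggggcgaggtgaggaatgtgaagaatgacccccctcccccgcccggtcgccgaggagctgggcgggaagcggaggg

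Most of the 2573 peaks were of moderate strength, and a long upper tail held a few that were among the strongest of the list. Their strength is given as the pileup, a count of WT fragments covering the summit, and as the fold enrichment, (pileup + 1) divided by (local control level + 1). All 22286 pileups were whole numbers, and 91.3% of 3796 control levels above their minimum lay within 0.02 of a multiple of 0.5 control fragments once divided by 1.34, the ratio of WT to control fragments, against 31.8% undivided. Pileups were therefore read as unscaled WT counts and control levels as scaled up to the WT depth, although the file header speaks of scaling the larger library. Members had a median pileup of 42 fragments, with quartiles of 30 and 73. Fold enrichment had a median of 6.39 (interval 6.23 to 6.70) and quartiles of 4.65 and 10.9. In width the median was 425 bp (interval 413 to 438) and the widest member covered 2541 bp. The control level stood at the genome-wide floor of 5.42 in 2144 of the peaks (83.3%), so at these the fold enrichment followed the WT pileup alone. The study counted a peak as high-confidence when its p lay below 1e-05, its q below 0.05 and its fold enrichment at 4 or above, and 2236 members passed (86.9%, interval 85.5 to 88.2), against 86.2% of all peaks on chromosomes 1 to 19. The other 337 failed the fold minimum and no other limit, and 200 of them lay between 3.5 and 4.

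The share that passed these limits was 5.98 percentage points above that of intergenic peaks beyond 50 kb (interval 3.82 to 8.17), and 3.93 points above it where the control level was at its floor. Against intergenic peaks at 1 to 10 kb the difference was 2.06 points (interval -0.13 to 4.32), and against promoter peaks it was 0.20 points (interval -1.33 to 1.65), neither of which excluded 0. A difference is called where its interval excludes 0, and 50 differences were judged in this way with no adjustment for their number. Under start sites of protein-coding transcripts alone the difference from the 1 to 10 kb peaks was 2.32 points, and without peaks above the control floor it was 2.61 points, both past the threshold.

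A fold enrichment of 20 or more was reached by 232 members (9.02%), against 6.94% of all peaks. This share was 5.37 points above that of promoter peaks (interval 4.24 to 6.59). It differed by 0.53 points from the 1 to 10 kb peaks (interval -1.31 to 2.27) and by -0.17 points from those beyond 50 kb (interval -1.88 to 1.51). At 40 or more stood 40 members, of which 27 were upstream of the nearest start site. Across members, width and fold enrichment ran together with a Spearman rho of 0.80, and distance from the start site and fold enrichment did not, with a rho of 0.00. Both are descriptions over the 2573 peaks, which share the same pair of libraries.

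The strongest member lay upstream of the gene for Tcf1. At chr11:52126992-52128354, it reached 997 WT fragments (Poisson interval 936 to 1061) over a control level of 6.02, which is a fold enrichment of 142, across 1363 bp. Of the peaks on chromosomes 1 to 19 it had the largest fold enrichment. The 5 other members nearest to Tcf7 were all on the same side. They had pileups of 28 at 10.02 kb, 68 at 16.7 kb, 232 at 26.4 kb, 24 at 27.8 kb and 170 at 35.5 kb, so the peaks at 26.4 and 35.5 kb on each side of the strongest were the next in height.

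The run of peaks went on into the DNA named for Vdac1, a channel of the outer mitochondrial membrane. The sixth strongest member, at chr11:52154359-52155215, was 19.6 kb upstream of Vdac1 and 58.1 kb from the Tcf7 start site, with a fold enrichment of 64.5 from 413 WT fragments over a control of 5.42. It stood 26.8 kb from the strongest Tcf7 peak. The 10 members nearest to Tcf7 or Vdac1 spanned 53.2 kb, 9 of them passed the high-confidence limits and 4 reached a fold enrichment of 20. In 2 of the 10 the Tcf/Lef core was found, and in 0 the Runx core. This stretch, like the Cd8 and 4930467E23Rik stretches described further on, was chosen after its values were seen, and so were the weaker members given below for Ifng, Gzmb and Runx3.

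The other strongest members lay near genes of varied function. Ifngr2, the signalling chain of the interferon-gamma receptor, had a peak 13.3 kb upstream with 562 WT fragments (interval 516 to 610) over a control of 7.35, a fold enrichment of 67.4. Cyp26b1, an enzyme that degrades retinoic acid, had a peak 23.5 kb upstream with 476 fragments over the control floor and a fold enrichment of 74.3. A330017A19Rik had a peak of 472 fragments 19.7 kb downstream, with a fold enrichment of 73.7. Dapk2, a kinase of the death-associated family, followed with 418 fragments and a fold enrichment of 65.3. Fos, a subunit of the AP-1 factor, had a peak 26.6 kb upstream with 371 fragments and a fold enrichment of 58.0.

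Among the 12 strongest members were also peaks near Gm572 (62.9 fold), the membrane protein gene Ms4a7 (62.3), the helicase gene Dhx40 (62.0), the small GTPase gene Arl4c (59.8) and Herpud2 (58.1). Pileups across the 12 ran from 371 to 997 fragments while the control stayed between 5.42 and 7.35, at the floor in 9 of them. Widths ran from 752 to 1690 bp and distances from 12.3 to 46.8 kb, with 8 of the 12 upstream. The Tcf/Lef core was present in 1 of the 12, beside 12.7% of all members, its variant TTCAAAG without it in 3 and the Runx core in 3, beside 19.7% of all members, while 5 held none of these words within 100 bp of the summit.

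**Figure D1:**
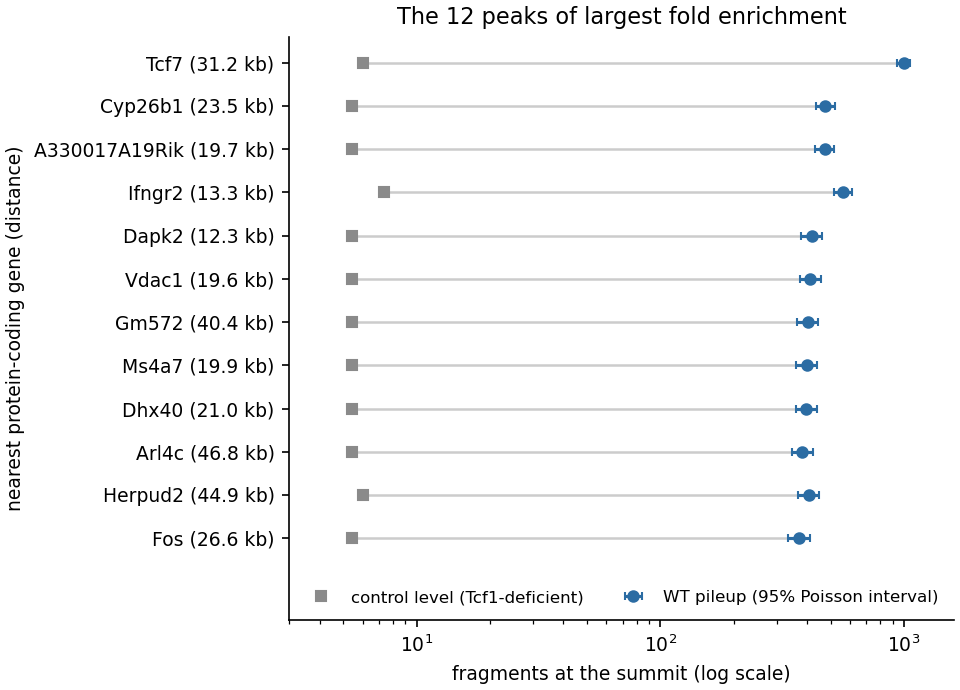
WT pileup (circles, with 95% Poisson intervals) and control level from the Tcf1-deficient library (squares, scaled to the WT depth) at the summits of the 12 members of largest fold enrichment, in fragments on a log axis, labelled by nearest protein-coding gene and distance. The Tcf7 peak stands at 997 fragments and the other 11 lie between 371 and 562, while every control level is between 5.42 and 7.35.

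A high control level was rare. A control level over 50, in fragments scaled to the WT depth, was found at 13 members, whose fold enrichment had a median of 1.61 and a range of 1.28 to 4.001, and 1 of them passed the high-confidence limits. They were narrow, with a median width of 243 bp, and held 0 Tcf/Lef cores and 1 Runx core. The tallest member of all by pileup was of this kind. Near Ly6c2, at chr15:74916725-74917353, its fold enrichment was 1.55, from 1419 WT fragments over a control of 913. The next highest control levels were 318 near Zfp825, with 406 WT fragments, and 225 near Armc4, with 292. All 7 members nearest to 4930467E23Rik, within 18.7 kb, had control levels of 15.6 to 57.5 and fold enrichments of 1.61 to 2.55, and 0 of them were high-confidence. At these places the WT and Tcf1-deficient libraries were both high.

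These peaks thinned out slowly with distance. The eligible genome, meaning the bases on chromosomes 1 to 19 that meet the same rule of position and are not N, came to 336 Mb, which gave 7.66 peaks per Mb (interval 7.37 to 7.96). That was 0.756 times the density at 1 to 10 kb (interval 0.710 to 0.806) and 3.43 times the density beyond 50 kb (interval 3.24 to 3.64). Within the range the density was 8.57 per Mb at 10 to 20 kb (interval 8.06 to 9.11), 7.64 at 20 to 30 kb, 7.23 at 30 to 40 kb and 6.24 at 40 to 50 kb (interval 5.60 to 6.93). The first and last of these intervals did not overlap, while the middle pair did.

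**Figure D2:**
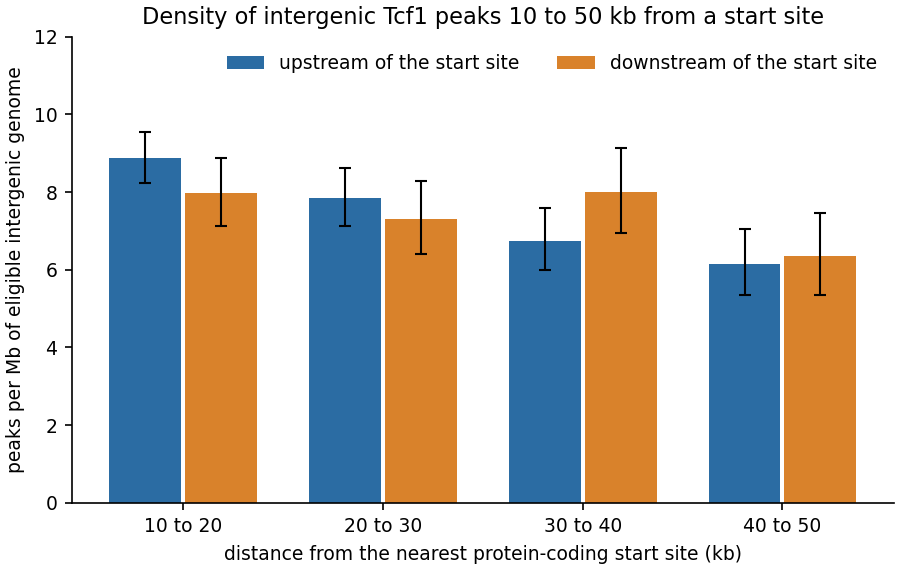
Peaks per Mb of eligible intergenic genome by distance from the nearest protein-coding start site, in 10-kb steps, upstream and downstream of the start site, with 95% Poisson intervals. Upstream density goes from 8.88 per Mb at 10 to 20 kb to 6.16 at 40 to 50 kb, and downstream density from 7.97 to 6.35 with 7.99 at 30 to 40 kb.

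The share of members on the upstream side was close to that of the DNA itself. Upstream of the nearest start site lay 1643 members (63.9%), and the eligible genome was itself 63.1% upstream, a difference of 0.80 points (interval -1.09 to 2.66). Among peaks with the control at its floor the excess was 2.39 points, past the threshold. Upstream and downstream members had median fold enrichments of 6.54 and 6.23. The high-confidence share was 2.56 points higher upstream (interval -0.15 to 5.404), the Tcf/Lef share 0.77 points higher (interval -1.97 to 3.37) and the Runx share 1.83 points higher (interval -1.39 to 4.94), all within counting error.

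The share of members with a near neighbour was close to that of all peaks. Another deposited summit lay within 10 kb of 51.7% of them, against 53.3% of all peaks, and 1142 members (44.4%) had another member within that distance. Every member lay over 10 kb from protein-coding start sites by the rule, which puts most promoter peaks of those genes outside a 10-kb reach, so the difference of -23.0 points from the 1 to 10 kb peaks is a description that the rule itself shapes. It was -11.8 points among peaks of a fold enrichment of 8 or more and -11.0 points for a neighbour within 25 kb. The difference from the peaks beyond 50 kb was 6.96 points (interval 4.02 to 9.87). It was 3.47 points for a neighbour within 5 kb and 15.2 points within 25 kb. It came to 0.31 points, and was no longer past the threshold, among peaks of a fold enrichment of 8 or more. Under the rule, a reach of 25 kb can take in promoter peaks of protein-coding genes for members but not for peaks beyond 50 kb. Neighbours were not split by class, so what this adds was not tested.

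Sequence set these peaks apart from the DNA around them. The Tcf/Lef core was found in 12.7% of members (interval 11.51 to 14.1), in 3.501% of 5142 windows of the same size 2 kb to each side, and in 9.7% of all peaks. The difference from the flanks was 9.25 points (interval 7.90 to 10.7). The same letters read backwards, a control of equal base composition, occurred in 2.68% of members and 2.43% of flanks. The variant TTCAAAG was found in 12.6% of members and 4.45% of flanks. With either form counted, 624 members (24.3%) held a Tcf/Lef core, against 7.80% of flanks and 18.9% of all peaks.

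Within the peaks that held it, the Tcf/Lef core sat close to the summit. The median distance was 16.5 bp, and 60.4% had it within 25 bp. The Runx core had a median distance of 32 bp and the ETS core 37 bp. Of the 348 Tcf/Lef cores, 167 were on the plus strand, and 20 peaks had 2 of them. In 50-bp steps, the Tcf/Lef core was found in 5.09% and 5.21% of members in the steps on each side of the summit and in 0.70% and 0.66% in the steps that begin 100 bp away. The Runx core went from 7.35% and 6.80% beside the summit to 2.68% and 2.14% at that distance.

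**Figure D3:**
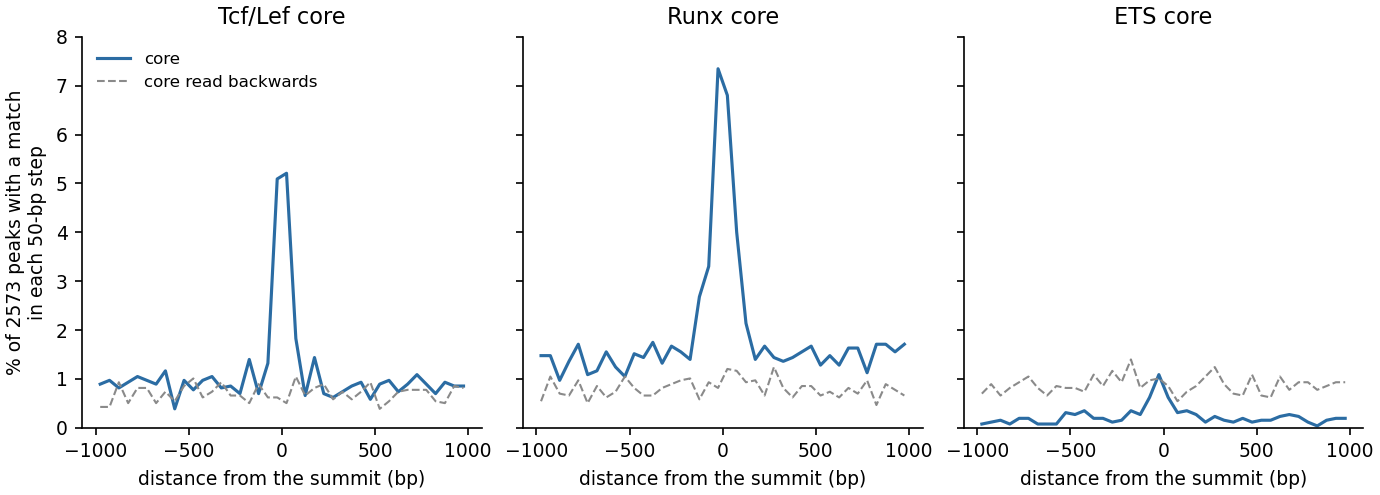
Share of the 2573 members with a match to the Tcf/Lef, Runx or ETS core in each 50-bp step of distance from the summit (solid), and to the same core read backwards (dashed), in percent. The solid lines peak at the summit at 5.21% for Tcf/Lef, 7.35% for Runx and 1.09% for ETS, while the backward words stay near their level farther out.

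The Runx core was in 506 members (19.7%, interval 18.2 to 21.2), in 5.10% of their flanks and in 14.8% of all peaks, and the difference from the flanks was 14.6 points (interval 13.0 to 16.3). Read backwards it occurred in 4.04% of members and 2.66% of flanks. The ETS core CGGAAGT, which holds a CpG, was rare here. It was found in 65 members (2.53%), 0.39% of flanks and 6.54% of all peaks, and the difference from the flanks was 2.14 points (interval 1.56 to 2.83). As a ratio, its share in members was 6.49 times that in flanks. The same ratio was 3.64 for the Tcf/Lef core and 3.86 for the Runx core. The ETS variant without the CpG, AGGAAGT, was in 19.8% of members and 5.41% of flanks, and was less frequent in promoter peaks, at 9.32%. Among all 8192 words of 7 letters, both strands joined, ranked by their excess within 50 bp of the summit over the flanks, AACCACA, the reverse complement of the Runx core, was at rank 1, ACTTCCT, the reverse complement of AGGAAGT, was at rank 3, ATCAAAG at rank 5 and CGGAAGT at rank 205.

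Further words that T cell factors bind were searched in the same way. The AP-1 word TGACTCA was in 6.10% of members and 3.33% of flanks, a difference of 2.78 points (interval 1.77 to 3.87). The E-box CAGCTG, bound by E proteins, was in 13.7% and 9.16%, a difference of 4.56 points (interval 3.04 to 6.14). The Klf word GGGTGTG was in 7.54% and 4.53%, a difference of 3.01 points (interval 1.88 to 4.22), though its backward control was also in 6.06% and 4.49%. For the GATA word AGATAAG the shares were 2.64% and 2.68%, and for the STAT word TTCCNGGAA 0.66% and 0.56%, with both intervals holding 0. The NFAT word TGGAAAA was in 4.24% of members and 5.50% of flanks, a difference of -1.27 points (interval -2.24 to -0.23). For the other 12 of the 18 words searched, the interval of the difference from the flanks lay above 0 in each, Tcf/Lef, Runx and ETS forms included. Its lower limit was only 0.14 points for the E-box CAGGTG, 0.31 for the CTCF word, 0.32 for the forkhead word and 0.34 for the IRF word. The GC box CCCGCCC reads the same backwards, so it had no such control.

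The shares of the cores were set beside those in the other classes of peaks. Gene-body peaks, for which the difference was not tested, held the Tcf/Lef core in 13.6%, the Runx core in 21.1% and the ETS core in 2.49%. The Tcf/Lef share was 8.01 points above that of promoter peaks (interval 6.69 to 9.42), or 2.76 points within ranges of GC percent (interval 1.03 to 4.49). It was 2.75 points above that of the 1 to 10 kb peaks (interval 0.73 to 4.70), and differed by -0.26 points from that beyond 50 kb (interval -2.25 to 1.69). The variant TTCAAAG was in 12.6% of members, 13.1% of the 1 to 10 kb peaks and 14.8% of those beyond 50 kb, differences that were not tested. For the core ATCAAAG, the difference from the 1 to 10 kb peaks was 1.05 points among peaks of a fold enrichment of 8 or more. Within 50 bp of the summit it was 1.63 points, and neither was past the threshold. The Runx share was 13.8 points above that of promoter peaks (interval 12.2 to 15.4), or 5.44 points within ranges of GC percent (interval 3.38 to 7.49). It differed by 1.83 points from the 1 to 10 kb peaks (interval -0.66 to 4.26) and by -2.27 points from those beyond 50 kb (interval -4.68 to 0.10). The first of these passed the threshold with the peak middle in place of the summit, at 3.37 points (interval 0.95 to 5.72), and the second among high-confidence peaks, at -3.57 points, at the control floor, at -3.04 points, and within ranges of fold enrichment, at -3.08 points. The ETS share was 10.1 points below that of promoter peaks (difference -10.1, interval -11.0 to -9.11), and the difference was -5.38 points within ranges of GC percent (interval -6.43 to -4.32) and -6.49 points within 50 bp of the summit. The ETS share differed by -0.80 points from the 1 to 10 kb peaks and by -0.13 points from those beyond 50 kb, both within counting error. Among peaks of a fold enrichment of 8 or more the first came to -1.93 points, past the threshold (interval -3.97 to -0.27).

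**Figure D4:**
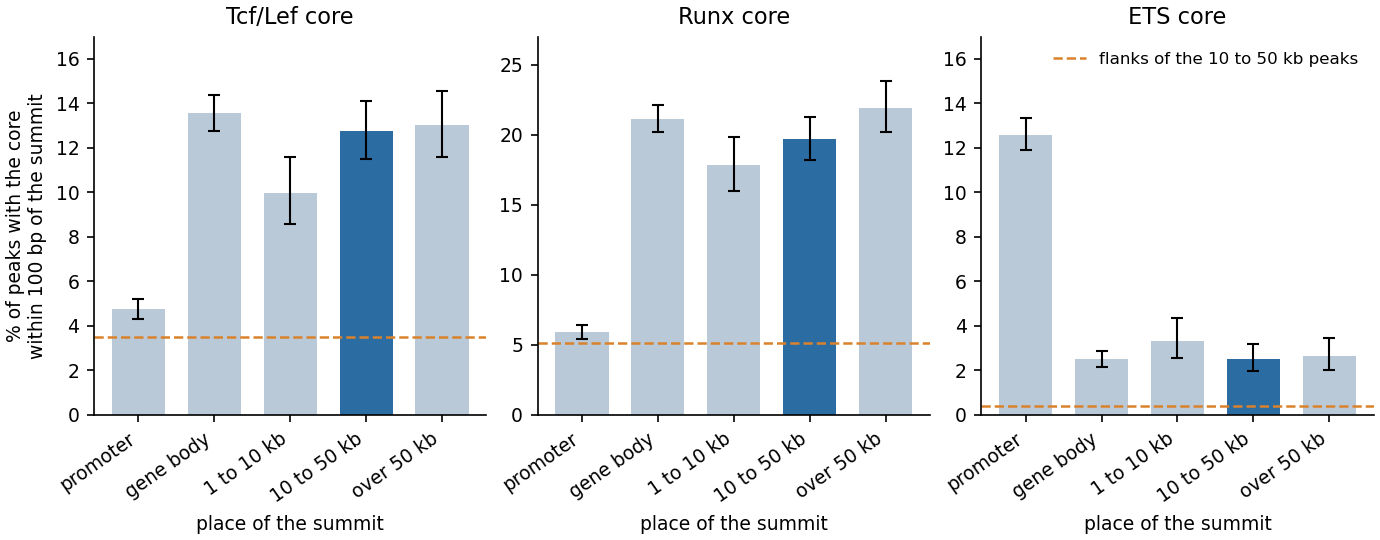
Share of peaks with the Tcf/Lef, Runx or ETS core within 100 bp of the summit, in percent, by place of the summit, with 95% Wilson intervals and the share in the flanks of the 10 to 50 kb peaks as a dashed line. The 10 to 50 kb peaks (dark) stand at 12.7%, 19.7% and 2.53%, against 4.74%, 5.90% and 12.6% in promoter peaks.

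The Tcf/Lef and Runx cores were least frequent in members of a fold enrichment under 4, and the ETS core showed no steady rise. No trend over fold enrichment was tested. The Tcf/Lef core was in 8.90% of members of a fold enrichment under 4 (interval 6.31 to 12.4), in 12.4% at 4 to 6, 12.2% at 6 to 10, 14.4% at 10 to 20, 17.2% at 20 to 40 and in 8 of the 40 peaks at 40 or more (interval 10.5% to 34.8%). The Runx core was in 12.8% under 4 (interval 9.61 to 16.7), 16.9% at 4 to 6 and 22.1% at 6 to 10. It was in 23.8% at 10 to 20 (interval 20.2 to 27.7) and 22.9% at 20 to 40. At 40 or more, 11 of the 40 peaks held it (interval 16.1% to 42.8%), so most of the strongest peaks held neither core. The ETS core was in 1.78% of members under 4, 2.91% at 4 to 6, 3.09% at 6 to 10, 2.40% at 10 to 20, 1.04% at 20 to 40 and in 0 of 40 at 40 or more (interval up to 8.76%). Along the distance from the start site, the ETS core was in 3.24% of members at 10 to 20 kb (interval 2.33 to 4.50) and in 1.14% at 40 to 50 kb (interval 0.45 to 2.90), while the Tcf/Lef share was 11.2% and 13.1% and the Runx share 19.7% and 16.6%.

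Few members held both the Tcf/Lef and the Runx core. Both were found within 100 bp of the summit in 43 members, Tcf/Lef alone in 285, Runx alone in 463 and neither in 1782. The Runx core was thus in 13.1% of the members with a Tcf/Lef core (interval 9.88 to 17.2) and in 20.6% of those without, a difference of -7.51 points (interval -11.2 to -3.12). The Runx core was in 5.10% of flanks and 14.8% of all peaks. How often both cores shared a peak was not counted over all peaks or in other classes, so it is not called a trait of members. The cores in the 43 peaks were a median of 57 bp apart. A fold enrichment of 20 or more was reached by 14.0% of the peaks with both, 12.3% with Tcf/Lef alone, 10.6% with Runx alone and 7.97% with neither, with an interval of 6.56 to 27.3 for the first that held the other 3 shares.

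CpG-rich members, with a GC content of at least 55% and an observed over expected CpG of at least 0.6 in the 201-base window, numbered 153 (5.95%), against 63.9% of promoter peaks, 8.03% of the 1 to 10 kb peaks and 3.32% of those beyond 50 kb. The sequence around A830005F24Rik shown above is one of them. They held the Tcf/Lef core in 5.23% and the Runx core in 5.88%, against 13.2% and 20.5% of the other members. The ETS core was in 6.54%, against 2.27%, a difference of 4.26 points (interval 1.24 to 9.37). A fold enrichment of 20 or more was reached by 3.27% of them, against 9.38%. The high-confidence shares were 88.2% and 86.8%, a difference within counting error of 1.42 points (interval -4.78 to 5.84). The median GC content over all members was 48.8%.

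The 2573 peaks were shared out over 1658 of 21418 protein-coding genes by nearest start site (7.74%). A single member was named for 1156 of these genes, 502 genes had 2 or more and 55 had 5 or more. The most stood near Ccr7, the chemokine receptor that brings naïve T cells into lymph nodes. It had 12 members, 4 upstream and 8 downstream, 11.4 to 30.9 kb away, with fold enrichments from 3.74 to 25.1 around a median of 4.75. The tallest 3 reached 178 fragments at 23.4 kb downstream, 160 at 15.9 kb upstream and 142 at 11.4 kb upstream, over control levels of 5.42 to 6.69. The other 9 ran from 23 to 127 fragments. Tcf/Lef cores were in 2 of the 12 and Runx cores in 3.

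Cxcr4, the receptor for Cxcl12, had 9 members, 7 of them upstream, and these were taller as a set. The peak 19.7 kb upstream had a fold enrichment of 53.9, from 345 fragments over a control of 5.42. Those at 10.5 and 13.7 kb upstream both had 221 fragments, and that at 22.7 kb had 196. None of the 9 held ATCAAAG, and 2 held the Runx core. Fasl, the death ligand of cytotoxic cells, also had 9 members, 4 upstream and 5 downstream, with a median fold enrichment of 11.1. The tallest, 16.1 kb upstream, had 251 fragments over 6.02 and held the Tcf/Lef core. The widest Fasl peak, 21.5 kb downstream, had 165 fragments over 1616 bp.

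Btg1, an antiproliferative gene, had 9 members with a median fold enrichment of 7.32 and the tallest, 173 fragments, 14.5 kb upstream. Smad7, the inhibitory Smad of the TGF-beta pathway, had 8 with 214 fragments at the tallest, 45.1 kb upstream, and the gene model Gm10293 had 8 with 277 at the tallest. Peli1, an E3 ubiquitin ligase, had 7, all downstream, with 254 fragments at 39.2 kb. Il6st, the shared signalling receptor gp130, had 7 with 198 fragments at 47.4 kb upstream, and another peak of 580 fragments lay 50.1 kb away, just outside the distance limit.

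**Figure D5:**
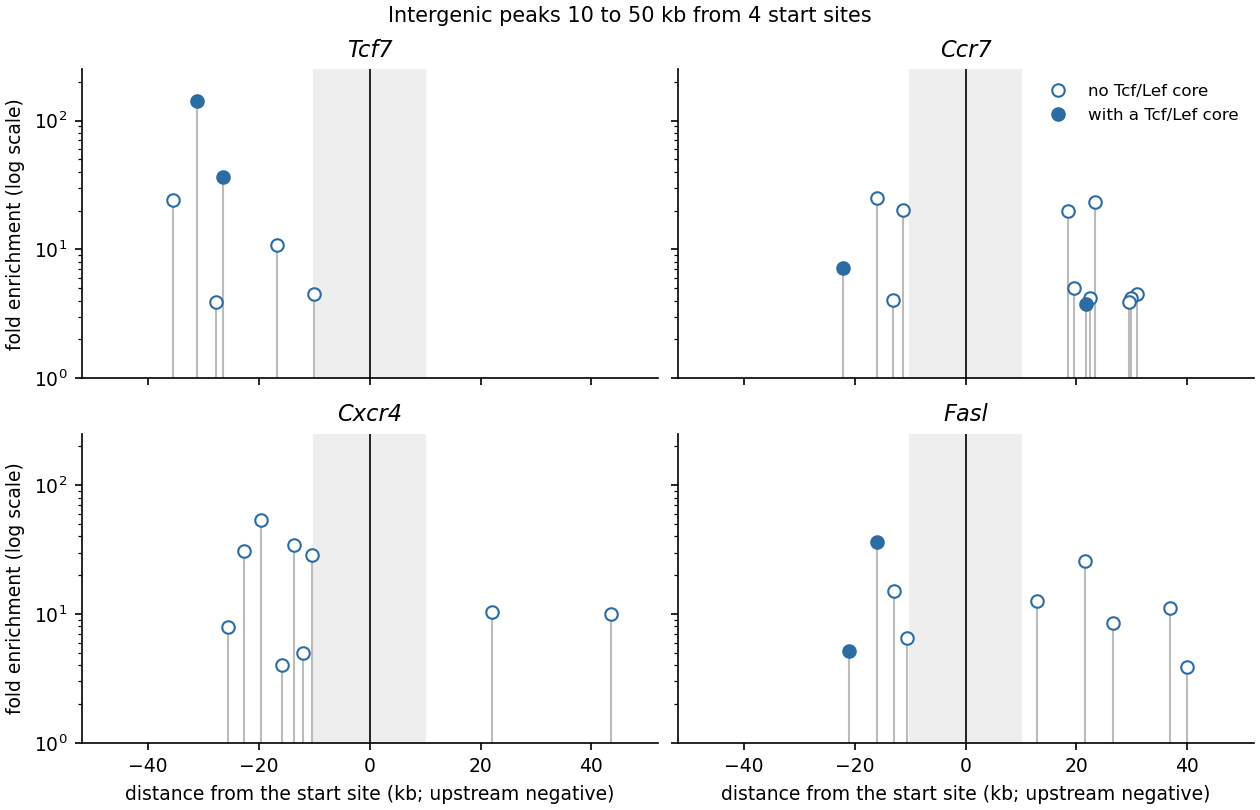
Fold enrichment (log axis) of the members nearest to Tcf7, Ccr7, Cxcr4 and Fasl against their signed distance from the start site in kb, upstream negative, with members that hold the Tcf/Lef core filled and the inner 10 kb, which the rule leaves out, in grey. The 6 Tcf7 peaks are all upstream and reach 142, while the 12 Ccr7 peaks lie on both sides and stay at or below 25.1.

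Members near listed genes are given beside all protein-coding genes, of which 7.74% had any. The lists of genes were drawn up with earlier results of these data known, so their counts are descriptions. Among homing and cytokine receptors 16 of 25 had a member, with 53 members and 88.7 per Mb of the eligible DNA nearest to them, against 7.66 per Mb over all genes. The strongest after Ifngr2 and Cxcr4 were near Il7r, the receptor for the survival cytokine IL-7 (45.3 kb upstream, 313 fragments over 5.42), Il21r (14.6 kb upstream, 288 over 5.42), Il10ra (22.8 kb upstream, 190 over 5.42) and S1pr1, which guides exit from lymph nodes (29.7 kb downstream, 180 over 5.42). Their fold enrichments were 48.9, 45.03, 29.8 and 28.2.

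Of the TCR complex, coreceptors and costimulation genes, 11 of 23 had a member, with 61.0 members per Mb. Ptprc, the CD45 phosphatase, had the strongest, 279 fragments over 6.02 at 16.5 kb upstream. Lat, the TCR adaptor, had 97 over 5.42, Thy1 93 over 7.35, Cd3e 69 over 6.02 and Cd28 61 over 5.42. The CD8 coreceptor genes lie next to each other, and the DNA between them was dense in peaks of modest height. The 6 Cd8b1 members downstream and the 4 Cd8a members upstream made a run of 10 within 19.5 kb, with pileups of 20 to 90 and fold enrichments of 2.99 to 14.2, of which 9 were high-confidence and 0 reached a fold enrichment of 20. The tallest, 15.8 kb upstream of Cd8a, had 90 fragments over 5.42. A Tcf/Lef core was in 1 of the 10, the Cd8b1 peak at 15.3 kb with 51 fragments.

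Effector and inhibitory molecules had a member in 10 of 21, with 59.4 per Mb. Ifng, the gene for interferon-gamma, had 6, of which the peak 21.8 kb upstream stood out with 244 fragments over 5.42, while the 5 downstream had 30 to 68 fragments. Its core is among the sequences shown above. Gzmb, the granzyme B gene, had 5, all upstream, with 233 fragments over 7.35 at 34.0 kb and 30 to 54 at the other 4. Klrd1, which encodes the NK receptor chain CD94, had 118 fragments over 5.42 at its tallest, the chemokine gene Xcl1 112 and Pdcd1, the gene for PD-1, 87. No member was named for Gzma, Gzmk, Prf1, Tnf, Ccl3, Ccl4, Nkg7, Klrg1, Klrk1, Havcr2 or Lag3. Peaks in promoters, in gene bodies, nearer than 10 kb or beyond 50 kb fall outside the rule. Tcf1 peaks elsewhere at these genes are therefore not excluded.

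Of T lineage transcription factor genes 16 of 34 had a member, with 28.5 per Mb. Satb1, a chromatin organiser, had a peak of 251 fragments over 5.42 across 1754 bp, 46.1 kb upstream. Runx3, the Runx factor of the CD8 lineage, had 7 members, with 165 fragments at 22.0 kb upstream and 120 at 40.1 kb upstream. The ETS factor genes Ets2 and Ets1 had 105 and 102 fragments at their tallest and Irf4, an activation factor, 97, each over 5.42. Prdm1, the gene for Blimp-1, had a single member 29.0 kb downstream of its start site, with 139 fragments over 8.02 and with both a Tcf/Lef and a Runx core. Of the Tcf/Lef and Wnt pathway genes 4 of 18 had a member, with 12.5 per Mb (interval 5.74 to 23.8). Beside Tcf7 these were the corepressor genes Tle3, with 137 fragments over 5.42, and Tle4, with 44, and Lef1 with 25 fragments 45.3 kb upstream, a fold enrichment of 4.05.

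Brakes on signalling had a member in 11 of 20 genes, with 29.0 per Mb. The tallest were near the cytokine signal suppressors Socs1 (147 fragments) and Cish (130), the ubiquitin ligase gene Cblb (143), the MAP kinase phosphatase genes Dusp2 (142) and Dusp6 (131), and Tnfaip3, the gene for A20 (123). All 6 stood over a control level of 5.42. B cell and myeloid genes had a member in 1 of 20, with 7.84 per Mb (interval 0.95 to 28.3). This was Fcgr3, with 40 fragments over 5.42. Housekeeping genes had one in 3 of 13, with 61.4 per Mb over a small stretch of eligible DNA (interval 19.9 to 143), and their tallest peak, near Actb, had 64 fragments. A fold enrichment of 20 was reached by 0 of 5 housekeeping members and 0 of 2 near B cell and myeloid genes, beside 9.02% of all members. It was reached by 4 of 9 near Tcf/Lef and Wnt pathway genes, 13 of 53 near homing and cytokine receptors, 5 of 21 near signalling brakes, 4 of 32 near effector and inhibitory molecules, 2 of 34 near T lineage transcription factors and 1 of 30 in the TCR complex, coreceptor and costimulation list. No list was tested against another.

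The distance limits cut through a continuous run of peaks. The 3 members closest to 10 kb, near Tff3, Cln6 and Gm10797, had 70, 60 and 46 fragments, and the 3 peaks just nearer than 10 kb, near Manba, Mppe1 and Crlf2, had 28, 35 and 34. The 3 members closest to 50 kb, near Haao, Gm9949 and Scn10a, had 27, 29 and 29 fragments. Just beyond 50 kb, those near Tmem26, Il6st and Gm10905 had 113, 580 and 32.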

How the data were processed

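Tcf1 ChIP-seq was deposited as 1 peak list. The authors aligned reads to mm9 with Bowtie2 2.2.5 and called peaks with MACS2 (2.1.1.20160309 per the file headers), with WT against the Tcf1-deficient library, keeping 1 fragment per position. The deposited pileup is a signal, a coverage in fragments at the summit. The deposited fold enrichment is a ratio with a pseudocount of 1. The deposited −log10 p and −log10 q are the caller's, and they compare the 2 libraries. The header says that q was not calculated, yet a value above 0 is given. The control level was computed back as (pileup + 1)/fold − 1, and its steps were used to read how it had been scaled.

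Summits were placed on GENCODE vM1 and the mm9 genome (NCBIM37). Gene bodies and start sites of all transcripts counted. Words were searched on both strands within 100 bp of summits and, as background, in windows 2 kb to each side. Eligible genome was counted in steps of 10 bp. Shares have Wilson intervals, differences of shares Newcombe intervals, densities Poisson and their ratio exact binomial intervals, medians distribution-free intervals (Python 3.11.15, scipy 1.17.1, pysam 0.24.0). No p-value was computed. Scripts were tested on simulated data.

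The members and lists were chosen with earlier results of these data known. Named members were those with the largest fold enrichment, pileup or control level, those at the distance limits, those of the 8 genes with most members, the strongest of each gene list, and those with most cores. Of 12 genes tied at 7 members, the 8 genes took in only Peli1 and Il6st, whose strongest members had the largest fold enrichments. Alternatives were other fold limits, start sites, summit positions, windows, flanks, neighbour distances and strata of fold or GC.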

Additional observations from a re-analysis of the deposited data

How the results depend on the processing

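Of 164 alternatives over 27 results, 147 kept the call or, for a value with no test, stayed within its limits, 8 brought a difference past the threshold, 3 ended a call, 6 moved a value with no test and 0 reversed a called difference. The Tcf/Lef difference from peaks beyond 50 kb, -0.26 points and not called, ran from -1.58 points with the peak middle and -1.29 at a fold minimum of 8 to 0.45 within 50 bp of the summit and 0.92 within ranges of GC percent, called in none of them. Some differences kept their call and moved by over 1.5 times. Within ranges of GC percent the differences from promoter peaks were 2.76 points for Tcf/Lef, 5.44 for Runx and -5.38 for ETS, and within 50 bp the last was -6.49. The ETS difference from the flanks was 1.38 points at both a fold minimum of 8 and 50 bp. The neighbour difference from the 1 to 10 kb peaks was -11.8 points at a fold minimum of 8 and -11.0 within 25 kb, and that from peaks beyond 50 kb was 3.36 among high-confidence peaks, 3.62 at the control floor, 3.47 within 5 kb and 15.2 within 25 kb. The high-confidence difference from peaks beyond 50 kb was 3.93 points at the control floor. No paired analysis was possible because each group had 1 library. With start sites of protein-coding transcripts alone, the high-confidence difference from the 1 to 10 kb peaks was 2.32 points, and with the peak middle in place of the summit the Runx difference from them was 3.37 points, both past the threshold. At the control floor alone, the high-confidence difference from them was 2.61 points, the Runx difference from peaks beyond 50 kb -3.04 points and the upstream excess 2.39 points, all past it. The Runx difference beyond 50 kb was -3.57 points among high-confidence peaks and -3.08 points within ranges of fold enrichment, past it in both. A fold minimum of 8 left 978 members with a median fold enrichment of 13.2, a median width of 626 bp and a median GC content of 48.3%. There the ETS difference from the 1 to 10 kb peaks was -1.93 points, now past the threshold, while the Tcf/Lef difference from them, 1.05 points, and the neighbour difference beyond 50 kb, 0.31 points, were no longer past it. High-confidence members had a median fold enrichment of 7.17 and a median width of 466 bp. Within 50 bp the Tcf/Lef difference from the 1 to 10 kb peaks was 1.63 points, no longer past it. The causes were not tested. Other start sites left 2572 members, 2500 of them shared, and the peak middle left 2576, 2565 of them shared. With 1 library per group and most control levels at a floor, depth limits what can be said of weak peaks, such as that near Lef1 with 25 fragments (Poisson interval 16.2 to 36.9), and no interval here covers the spread between animals.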
